A study of Mus musculus with 16 samples.

Results

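Nascent RNA of mouse embryonic stem cells in which 2 lettered DNA elements, a and b, were deleted was compared with that of the unedited parental line. The comparison held 4 of the 16 libraries of the series: ab.del clones D10 and D12 against F121-9 libraries R1 and R2. Libraries were assigned to groups by their labels. F121-9 is a hybrid line that carries 1 Mus castaneus (cast) and 1 129 chromosome of each pair, so reads over sequence differences could be assigned to a copy. The 2 ab.del libraries have different clone codes, whereas R1 and R2 are repeats of 1 line. The positions of sites a and b, and the chromosome copy that lost them, do not appear in the labels. All cells were grown in 2i plus LIF on gelatin and labelled with 2 mM bromouridine for 30 min, which marks RNA made during the pulse (Bru-seq). For reference, 2 abc.del libraries (all 3 lettered sites deleted) and 2 c.del libraries (site c only) were fitted alongside, and the remaining 8 libraries carried other edits. The study asked which DNA elements set replication timing and chromosome folding.

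Values are allele-assigned counts per 1000000 such counts over all lines of the deposited table (CPM), for each copy. Lines can overlap, so a read can be counted on more than 1 line. The level of a gene is the mean of its 129 and cast CPM. Of 23830 autosomal gene symbols, 13584 had a mean of at least 0.2 CPM over the 16 libraries and were tested on the mean of copies. A gene is called changed where limma gives a Benjamini-Hochberg adjusted p under 0.05. The change is a difference of log2(CPM + 0.1), ab.del minus F121-9, given with its standard error (SE), and n is 2 libraries a group throughout. Autosomal gene reads were 16.6 M in D10, 20.6 M in D12, 21.4 M in R1 and 13.6 M in R2, in units of 1000000 reads.

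The deposited table has separate segment lines over Dppa4, Dppa2 and Morc1 on chromosome 16, which are described first. Dppa2 and Dppa4 encode paired DNA-binding proteins of pluripotent cells, and Morc1 encodes an ATPase known for silencing transposons in the male germ line. Dppa2 and Dppa4 replicate early in embryonic stem cells and late after differentiation, and their domain is a common model of replication timing. A pulse of bromouridine reads transcription itself, introns included, so long genes give signal over their whole body. Fewer transcribing cells and less RNA per cell cannot be told apart in bulk libraries like these.

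The libraries differed from each other in ways that touch the results. The 129 copy of chromosome X gave 0.0471% of the 129 reads in D10 and 0.0443% in D12, against 3.497% in R1 and 3.92% in R2. The cast X copy gave 4.70% and 4.29% against 3.92% and 3.94%, so RNA of the 129 X was nearly missing from both ab.del libraries. It was also nearly missing from both abc.del libraries, at 0.0462% and 0.0423%. No autosome of D10 or D12 had a median change beyond 0.5 on either copy, the range being -0.08 to 0.36 over genes with a mean of at least 1 CPM. In c.del replicate 1, a library of the same fit, the cast copy of chromosome 3 had a median change of 0.93. In D12 the change depended on gene width: with genes split by width into 5 equal classes, its median was 0.80 in the shortest class and -0.21 in the longest, against 0.09 and -0.03 in D10. D10, R1 and R2 came from the earlier of 2 runs of sample numbers and D12 from the later, which is known only as an order of deposit. A fit without D12 left D10 as the only ab.del library, and its median change was 0.01 on the mean of copies and 0.05 on the 129 copy. That fit was not confined to the earlier run, because c.del replicate 2, from the later run, stayed in it. Stem cell markers summed to 1143 CPM in D10, 1344 in D12, 1303 in R1 and 1156 in R2. Markers of fibroblast feeders summed to 0.436 CPM in D10 and 0.443 in D12, below 1.01 in R1 and 1.52 in R2, and their part in the results was not tested. Trophoblast markers summed to 0.162 to 0.311 CPM over the 4 libraries. Neural markers reached 15.4 CPM in D12 against 2.49 in D10, 3.21 in R1 and 2.78 in R2, and mesoderm markers 2.96 CPM in D12 against 0.416 to 0.844 in the others.

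**Figure D1:**
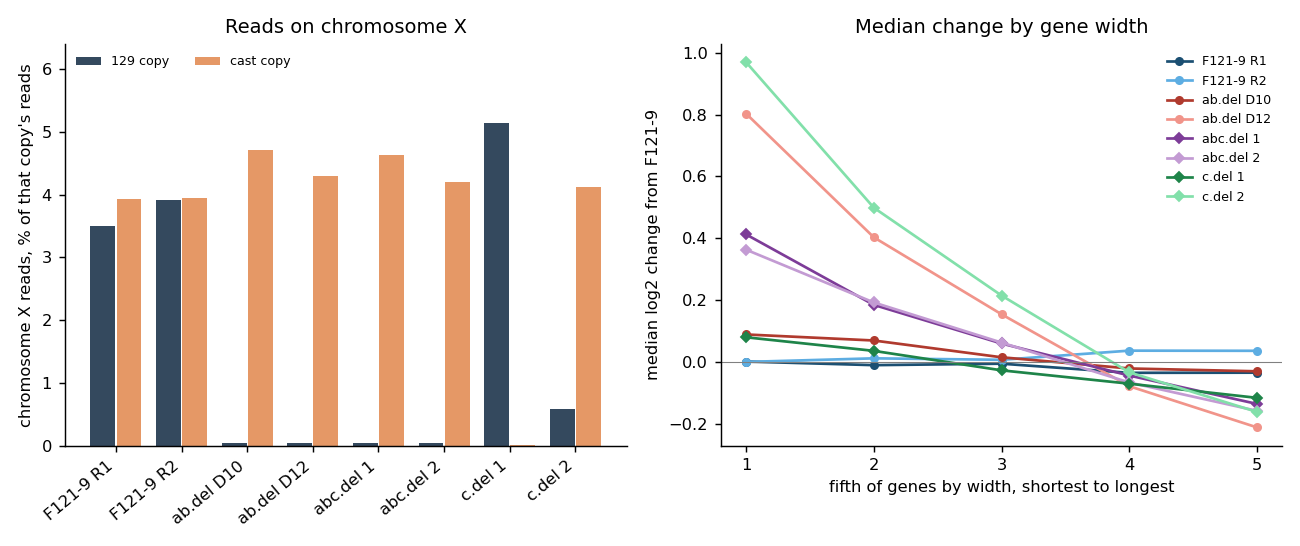
Left, reads on chromosome X as a percentage of all reads of each copy, in 8 libraries (dark bars 129, light bars cast). Right, the median log2 change from the F121-9 mean in 5 equal classes of genes ordered by width. The 129 bars are close to 0 in ab.del and abc.del, and D12 runs from 0.80 in the shortest class to -0.21 in the longest.

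At the locus, 129-copy transcription of Dppa4, Dppa2 and Morc1 fell in the ab.del cells while on the cast copy none of the 3 passed and each interval spanned 0. These were 3 of the 7 autosomal genes called on the 129 copy among 13479 tested (0.0519%). On the 129 copy, Dppa4 (chr16:48283735-48294292) gave 0 CPM in D10 and in D12, 14.8 in R1 and 13.5 in R2. No read of the 129 copy was counted in either clone, where 600 were counted in F121-9. Against a floor of 3 reads per library Dppa4 was at least 99.2-fold lower, and its change was -7.15 ± 0.62 (limma adjusted p = 0.00174). The cast copy of Dppa4 gave 19.06, 21.8, 19.6 and 18.7 CPM in the same order, a difference of 0.09 with a 95% interval from -0.50 to 0.67.

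Dppa2 (chr16:48310274-48319513) behaved the same way, with 0.104 and 0.129 CPM on the 129 copy in D10 and D12 and 23.0 and 20.4 in R1 and R2. Only 5 reads of its 129 copy remained against 923, a 187-fold ratio of pooled reads with an exact 95% counting interval of 79.6 to 576. The change was -6.65 ± 0.55 (limma adjusted p = 0.00174). Its cast copy was uneven between the clones, at 10.8 CPM in D10 and 23.9 in D12 around 15.8 and 12.1 in the parental libraries, so the groups overlapped (0.21, 95% interval -0.74 to 1.17).

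Morc1 (chr16:48431237-48630905) lost most, but not all, of its 129 signal. The 129 copy gave 17.3 CPM in D10, 34.1 in D12, 250.8 in R1 and 294.1 in R2, so every ab.del value lay below every parental one. The mean was 25.7 ± 11.8 CPM (SD, n = 2) against 272.4 ± 30.6 (SD, n = 2), or 10.6-fold lower, and the change was -3.48 ± 0.31 (limma adjusted p = 0.00174). On the cast copy Morc1 stood at 311.3, 302.8, 299.3 and 295.1 CPM, a difference of 0.05 with an interval of -0.41 to 0.51.

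The segments that the authors drew over the locus place the remaining Morc1 signal. At the start of the gene (48437302 to 48511046) D10 kept 2.16% and D12 3.05% of the parental 129 mean. In the next segment (48511047 to 48581359) the shares were 7.24% and 10.0%. Near the end of the gene (48620368 to 48630905) they were 15.7% and 70.0%, and in the segment after it (48630906 to 48655838) 8.08% and 24.02%. The remaining 129 signal was therefore lowest at the first segment in both clones, and D12 kept more than D10 in all 4 segments, with no test. On the cast copy the same 4 segments gave 87.6% to 144.6% of the parental mean.

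**Figure D2:**
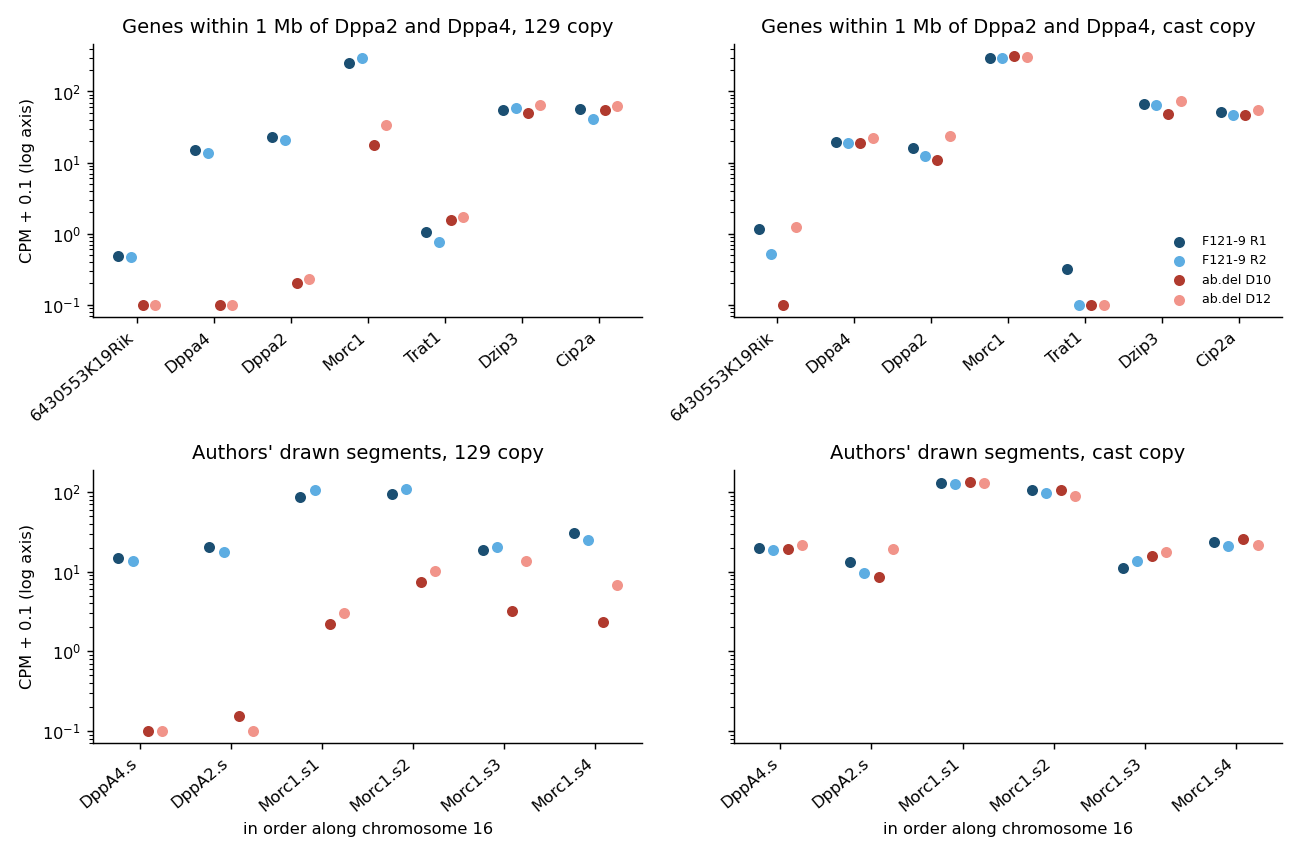
CPM + 0.1 on a log axis of the genes within 1 Mb of Dppa2 and Dppa4 (upper row) and of the authors' segments (lower row), 129 copy at left and cast copy at right, 1 point per library. On the 129 copy the red ab.del points of Dppa4, Dppa2 and Morc1 lie below the blue F121-9 points. On the cast copy none of these genes has both ab.del points below the F121-9 points, but the D10 point of Dppa2 lies below them.

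Genes further along did not pass. Dzip3, a ubiquitin ligase gene, gave 49.96, 64.8, 53.9 and 59.1 CPM on the 129 copy (0.01, interval -0.57 to 0.59). Cip2a, which encodes an inhibitor of the phosphatase PP2A, gave 54.0, 62.1, 56.7 and 41.1 CPM (0.26, -0.25 to 0.78). Trat1, a T cell receptor adaptor gene, was low at 1.45, 1.64, 0.973 and 0.674 CPM (0.85, -0.99 to 2.69). The 129 copy of 6430553K19Rik, upstream of Dppa4, had 0 reads in both clones against 0.389 and 0.368 CPM and missed the filter on that copy. Its pooled 16 parental reads allow a ratio of at least 3.90 by exact counting interval. Between 1 and 5 Mb from the pair, 0 of 34 genes were called on the 129 copy. Cd200, an immune inhibitory ligand gene in that range (chr16:45382135-45409053) that was singled out after its values were seen, gave 0.364 and 0.388 CPM on the 129 copy in ab.del against 5.14 and 7.91. Its change of -3.77 ± 0.85 did not pass (limma adjusted p = 0.450). Genes between 1 and 5 Mb from the pair had a median 129 change of -0.27, against 0.16 for genes further out on chromosome 16. On the cast copy the medians were -0.19 and 0.03, with no test.

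The difference between the copies was also tested directly, as 129 minus cast within each library. limma called 0 of 12831 genes (0%), with 665 at an unadjusted p under 0.05 (5.18%). Dppa2 came closest at -6.87 ± 0.40 (limma adjusted p = 0.0715), then Dppa4 at -7.24 ± 0.52 (0.116), whereas Morc1 was at -3.52 ± 0.43 (0.480). edgeR on the recovered reads called 7 genes (0.0546%), Dppa2, Dppa4 and Morc1 among them with adjusted p of 2.89e-07, 2.38e-06 and 5.60e-06. The other 4 lay elsewhere in the genome. Cacna2d1, a calcium channel subunit gene on chromosome 5, had 54.1, 60.6, 127.5 and 145.4 CPM on the 129 copy and 30.4, 38.98, 26.3 and 23.7 on the cast copy. Pclo, which encodes the presynaptic scaffold Piccolo and lies nearby on chromosome 5, differed on the cast copy, with 75.2 and 56.0 CPM against 14.3 and 13.3 there, beside 10.4, 6.86, 7.98 and 8.09 on the 129 copy. Klf12, a transcriptional repressor gene, had 276.4 and 266.5 CPM against 104.5 and 89.8 on the 129 copy, with cast values of 449.7, 445.4, 338.0 and 322.5. Platr20, a long noncoding RNA, had 9.01 and 11.5 CPM against 18.0 and 30.2 on the cast copy.

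Of the small p-values in that test, 3 belonged to weakly transcribed genes. Sertad1, a cell cycle regulator, had 21 reads of the 129 copy in ab.del against 1 in F121-9 and 1 against 10 of the cast copy, a 20.8-fold pooled 129 ratio with an exact interval of 3.34 to 860. Armc5, a tumour suppressor of the adrenal gland, had 65 against 15 reads of the 129 copy (4.29, interval 2.42 to 8.10). Jph2, a junction protein of cardiac muscle, had 10 against 38 (0.260, interval 0.116 to 0.533). None of the 3 passed with limma, with adjusted p of 0.154, 0.450 and 0.450.

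Away from chromosome 16, the other genes called on the 129 copy were Cox7b2 and Spink13, which fell, and Runx1t1 and Csrnp3, which rose. Cox7b2 encodes a testis form of a mitochondrial respiratory subunit. Its 129 copy gave 1.77 and 3.58 CPM in D10 and D12 and 44.9 and 47.2 in R1 and R2 (-4.14 ± 0.54, limma adjusted p = 0.0356). Its cast copy gave 1.76 and 2.45 against 15.3 and 19.09 CPM, so both copies were low in the clones, unlike at the locus. Spink13, an epididymal protease inhibitor gene whose annotated line spans 133848 bases of chromosome 18, gave 0.208 and 0.173 against 7.01 and 13.5 CPM (-5.08 ± 0.70, limma adjusted p = 0.0431). Its ab.del values lay near the filter of 0.2 CPM, which it passed through other libraries where it was higher. The Spink13 call therefore carries no weight.

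Runx1t1, a transcriptional corepressor of the ETO family, gave 92.0 and 99.9 CPM on the 129 copy in ab.del and 33.1 and 29.7 in F121-9 (1.61 ± 0.21, limma adjusted p = 0.0356). On the cast copy it gave 103.9 and 67.3 against 24.7 and 26.8 CPM. Csrnp3, a cysteine- and serine-rich nuclear protein gene, gave 124.1 and 109.0 against 29.9 and 33.4 CPM on the 129 copy (1.88 ± 0.26, limma adjusted p = 0.0431), and 334.0 and 384.3 against 178.5 and 171.1 on the cast copy. None of these groups overlapped. With the median of each library set to 0, neither Runx1t1 nor Csrnp3 was called, and edgeR, which called 6 genes on the 129 copy (0.0445%), called neither, whereas DESeq2 called 95 (0.705%), both included. The 4 calls depended on the libraries: without R1 or without R2 no gene was called on the 129 copy, those at the locus included, and with either ab.del library left out the calls numbered 3 without D10 and 4 without D12.

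**Figure D3:**
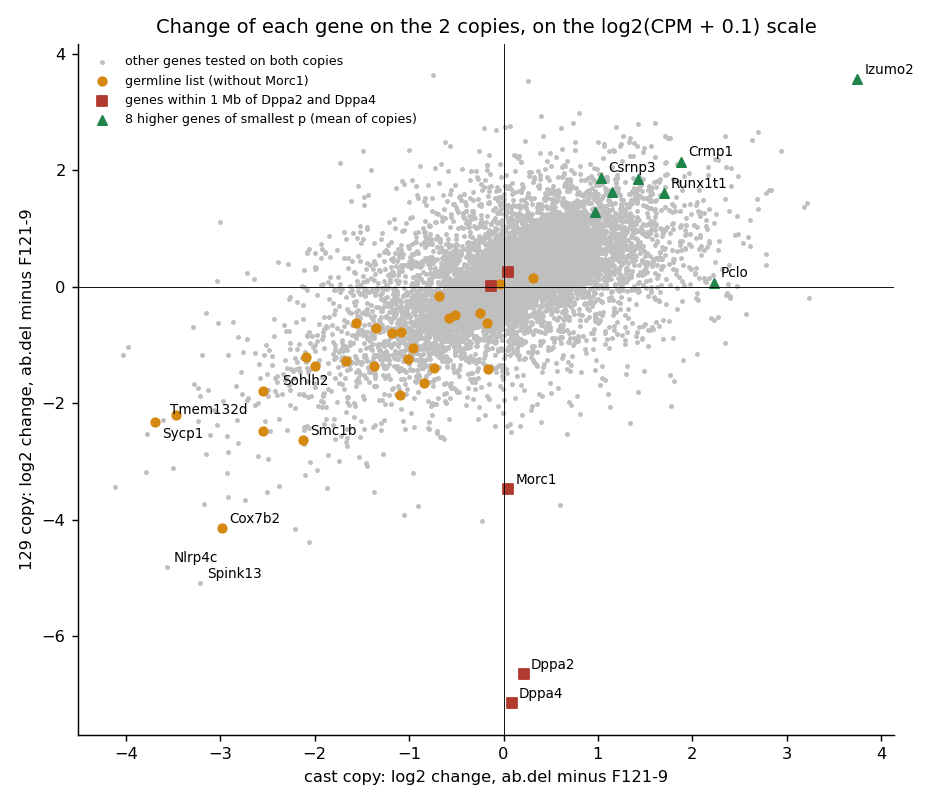
Log2 change of the 129 copy against that of the cast copy for the 12831 genes tested on both. Dppa4, Dppa2 and Morc1 (squares) lie near 0 on the cast axis and far below 0 on the 129 axis, whereas most germline genes (circles) lie below 0 on both and Runx1t1, Csrnp3 and Crmp1 (triangles) above 0 on both.

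On the mean of both copies limma called 0 of 13584 genes (0%), with 883 at an unadjusted p under 0.05 (6.5%), and the smallest adjusted p was 0.133. edgeR called 1 (0.00736%), Cox7b2 (adjusted p = 0.0313), and DESeq2 112 (0.824%), of which 92 were lower. The median change of all genes was 0.10, -0.05 after median centring, and was 0.01 for D10 and 0.18 for D12 alone. With the median of each library set to 0, limma called 5 genes, all lower: Cox7b2, Sycp1, Spink13, Nlrp4c and Gm12724. The genes of smallest p whose libraries did not overlap are therefore described by their values. Libraries did not overlap in 16.4% of all tested genes with ab.del lower and in 23.4% with ab.del higher.

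The lowest of these included genes of meiosis and the oocyte. Cox7b2 had a mean of copies of 1.76 CPM in D10, 3.01 in D12, 30.1 in R1 and 33.2 in R2, 13.3-fold lower in the clones (-3.72 ± 0.50, limma adjusted p = 0.133). Sycp1, the transverse filament of the synaptonemal complex, which joins paired chromosomes in meiosis, gave 1.14 and 1.66 against 19.08 and 14.5 CPM (-3.50 ± 0.51, 0.133). Most Sycp1 signal came from the cast copy, with 1.92 and 2.63 against 35.3 and 26.1 CPM. Nlrp4c, a member of an oocyte gene family of near-identical copies among which reads can be split, gave 0.159 and 0.130 against 5.77 and 5.03 CPM. It rested on 12 ab.del reads in all, 9 of the 129 and 3 of the cast copy.

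The remaining genes at the low end had other roles. Pdzrn4, a PDZ and RING domain protein, gave 8.53 and 10.9 against 34.7 and 33.9 CPM. St8sia6, a sialyltransferase, gave 31.9 and 43.9 against 99.8 and 97.4 CPM, and its fold differed by copy: on the cast copy it gave 6.15 and 11.1 against 51.0 and 52.9 CPM, on the 129 copy 57.6 and 76.7 against 148.7 and 142.0. Spink13 gave 0.186 and 0.132 against 3.76 and 10.2 CPM. The unnamed transcripts were Gm12724, with 2 reads of the 129 copy against 211 (ratio 107, exact interval 29.1 to 886), and Gm36229, with 2.61 and 1.16 against 14.4 and 17.5 CPM. Nlrp4c, Spink13 and Gm12724 were under 0.2 CPM in both clones and passed the filter through other libraries. Their place at the low end, and among the calls with median centring, therefore carries no weight.

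On the cast copy alone, where limma called 0 of 13361 genes (0%, with 810 at an unadjusted p under 0.05, 6.06%), edgeR 1 (0.00748%) and DESeq2 48 (0.359%), the 5 smallest p belonged to Sycp1, Tmem132d, Pdzrn4, St8sia6 and Pclo. edgeR called Sycp1 (adjusted p = 0.0214). Tmem132d, a membrane protein gene, gave 9.50 and 10.8 CPM on the cast copy against 146.0 and 107.0, and 19.5 and 42.8 against 141.1 and 140.8 on the 129 copy.

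At the high end, Runx1t1 had a mean of copies of 97.98 CPM in D10, 83.6 in D12, 28.9 in R1 and 28.2 in R2, 3.18-fold higher in the clones (1.66 ± 0.20, limma adjusted p = 0.133). Csrnp3 gave 229.1 and 246.6 against 104.2 and 102.2 CPM. Izumo2, a relative of the sperm-egg fusion protein Izumo1, had no read in either parental library and gave 1.31 and 1.04 CPM in the clones, at least 7.24-fold higher on the 129 copy and 7.55-fold on the cast copy against a floor of 3 reads per library. The other genes at this end were as follows. Pclo gave 42.8 and 31.4 against 11.1 and 10.7 CPM, and Crmp1, a semaphorin signalling protein, 17.6 and 8.72 against 3.08 and 2.59. Mcf2l gave 19.99 and 18.8 against 6.56 and 8.09 CPM. Prune2 gave 52.5 and 59.0 against 30.7 and 21.8 CPM, and Pkia, an inhibitor of protein kinase A, 28.3 and 47.7 against 14.6 and 10.6.

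**Figure D4:**
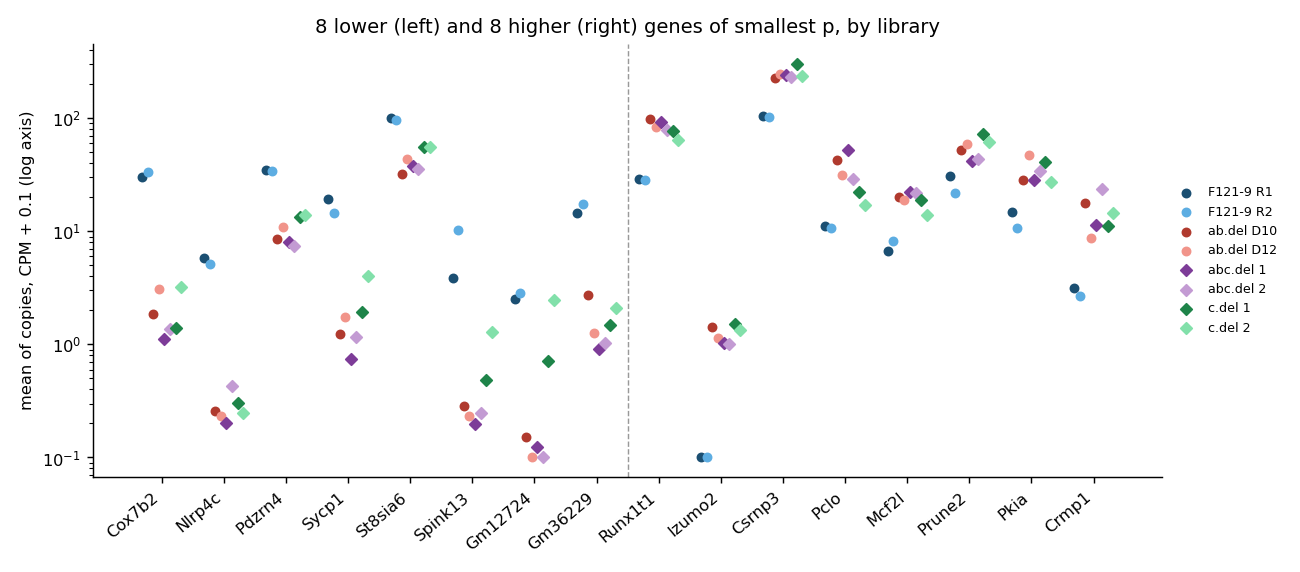
Mean of copies, CPM + 0.1 on a log axis, of the 8 lower and 8 higher genes of smallest p whose libraries do not overlap, in 8 libraries (circles F121-9 and ab.del, diamonds abc.del and c.del). Cox7b2, for example, lies at 1.01 and 1.26 CPM in abc.del and 1.76 and 3.01 in ab.del, against 30.1 and 33.2 in F121-9.

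These genes were also read in the abc.del and c.del libraries, and any comparison of those with the parental line would use the same 2 F121-9 libraries. Cox7b2 stood at 1.01 and 1.26 CPM in abc.del and 1.30 and 3.10 in c.del, and Sycp1 at 0.651 and 1.06 and at 1.85 and 3.91. Sycp1 lies on chromosome 3, whose cast copy was shifted upward in the first of these c.del libraries. Runx1t1 gave 92.2 and 79.0 CPM in abc.del and 77.0 and 63.9 in c.del, and Csrnp3 243.6 and 230.3 and 304.3 and 237.2. Between ab.del and abc.del, limma, edgeR and DESeq2 each called 0 of 13584 genes on the mean of copies (0%), with 0.891% of genes at an unadjusted p under 0.05 by limma (17 lower and 104 higher in ab.del). Between ab.del and c.del they also called 0 (0%), with 241 at that p (1.77%). The difference of ab.del from abc.del was 0.97 for Cox7b2 (95% interval -0.15 to 2.09) and 0.08 for Runx1t1 (-0.37 to 0.54), and from c.del it was 0.19 (-0.93 to 1.30) and 0.37 (-0.09 to 0.82).

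The smallest p between ab.del and abc.del belonged to genes higher in ab.del. Halr1, a noncoding RNA beside the Hoxa cluster, gave 11.6 and 25.3 CPM against 5.78 and 5.63, and Rnf130, a ubiquitin ligase gene, 41.4 and 38.02 against 26.5 and 20.6. Zfp773, Celrr and Kcnd3 gave at most 1.09 CPM. Against c.del, Bach2, a lymphocyte repressor gene, gave 16.8 and 15.0 CPM against 32.7 and 32.2, and Clstn3, a synaptic adhesion gene, 1.29 and 0.810 against 4.85 and 6.05. Atp1b2, a sodium pump subunit, gave 1.01 and 0.779 against 0 and 0.118 CPM, Abcb5, a drug transporter, 0.0275 and 0.382 against 1.15 and 3.25, and Gm12724 0.0260 and 0 against 0.613 and 2.38. All 10 had adjusted p of 1.00 by limma.

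At the locus the deletion lines did differ. On the 129 copy Dppa4 gave 0 and 0.0574 CPM in abc.del but 13.7 and 18.2 in c.del, and Dppa2 0.345 and 0.460 but 17.5 and 38.2. Against c.del, ab.del was lower, with differences of -6.91 ± 0.55 for Dppa2 and -7.31 ± 0.62 for Dppa4 (limma adjusted p = 0.00187 for both), the 2 genes called of 13479 (0.0148%). Fitted with these 2 groups alone, neither was called. Morc1 took a different order. Its 129 copy gave 3.70 and 4.19 CPM in abc.del, 17.3 and 34.1 in ab.del, 90.0 and 87.7 in c.del and 250.8 and 294.1 in F121-9, with no overlap between neighbouring groups. The difference ab.del minus abc.del was 2.60 ± 0.31 (limma adjusted p = 0.0805, the only gene called with median centring, 0.0340) and ab.del minus c.del was -1.87 ± 0.31 (limma adjusted p = 0.478). DESeq2 called both differences, with adjusted p of 2.62e-10 and 7.53e-05, where it called 0.00742% and 0.0668% of all genes, and edgeR neither, at 0.0762 and 0.352.

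Germline genes, which are silenced by DNA methylation and repressor complexes in most somatic cells and become partly active in stem cells grown in 2i, were mostly lower in ab.del. Of 32 autosomal members of the germline list, 30 passed the filter. Their median change was -1.05, against 0.10 over all genes tested, and 28 lay below that value. None was called by limma on the mean of copies, against 1 by edgeR (Cox7b2) and 4 by DESeq2 (Sycp1, Hormad1, Smc1b and Cox7b2). Over all genes edgeR called 0.00736% and DESeq2 0.824%. By limma 14 of the 30 were lower and 0 higher at an unadjusted p under 0.05, and the shares over all genes were 3.58% lower and 2.92% higher. The list was chosen with earlier results of these data known, so these counts describe it and are not a test. It includes Morc1, described above, which is among the 14. In 24 of the 30 the ab.del libraries lay below both parental ones, as in 16.4% of all genes. Members such as Asz1, Piwil4 and Tdrd1 were under 0.2 CPM in both clones and passed the filter only through other libraries. Their place among the lower members, and that of Asz1 and Piwil4 among the 14, therefore carries no weight. Without D12 the number at that p was 9 (2.86% of all genes), without D10 it was 7 (4.51%), and with the trend by gene width removed it was 15 (4.03% of all genes).

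The members that stood lowest belong to several stages of germ cell life. Smc1b, the cohesin subunit of meiosis, gave 3.28 and 2.97 CPM in D10 and D12 against 12.3 and 26.6 (-2.50 ± 0.53, limma adjusted p = 0.409). Hormad1, a protein of the unpaired meiotic axis, gave 3.98 and 6.29 against 11.3 and 14.9 CPM. Slc25a31, a nucleotide carrier of sperm mitochondria, gave 0.0519 and 0.305 against 1.27 and 1.84 CPM. Dazl, an RNA-binding protein of germ cells, differed between the clones, at 0.516 CPM in D10 and 6.92 in D12 against 15.0 and 7.67. Stk31 gave 9.66 and 11.4 against 20.8 and 23.5 CPM, and Piwil2, which binds piRNAs, 2.60 and 3.38 against 5.37 and 6.43. Syce1, Piwil4, Rpl10l and Brdt completed the 14, with changes of -2.05 to -1.48. Low values were not particular to ab.del. Dazl gave 1.11 and 1.02 CPM in abc.del and 1.20 and 5.86 in c.del. Slc25a31 gave 0.0739 and 0.407 CPM in abc.del and 0.141 and 1.20 in c.del, and Piwil2 2.49 and 1.71 and 4.13 and 5.14. Smc1b gave 3.12 and 1.53 CPM in abc.del and 2.90 and 5.75 in c.del, and Hormad1 2.80 and 3.69 and 4.47 and 7.59. Stk31 gave 7.55 and 6.80 CPM in abc.del but 9.06 and 28.7 in c.del, the last above both parental libraries. Syce1 was also above both in c.del replicate 2, at 3.62 CPM against 3.60 and 2.85. Brdt overlapped the parental libraries in abc.del and in c.del.

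Other members did not pass. Hsf2bp, a meiotic recombination factor gene, gave 131.5, 108.3, 100.8 and 139.6 CPM, Tdrd12 47.3, 21.1, 32.6 and 51.6, and Syce2, of the central element of the synaptonemal complex, 9.89, 9.84, 7.94 and 8.85. Syce2 was the 1 member with both clones above both parental libraries, and the other pair overlapped. Sohlh2, a germ cell transcription factor gene outside the list that was singled out after its values were seen, gave 3.30 and 3.97 against 15.3 and 16.2 CPM.

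Reads of the X copies are given beside Cox7b2, Sycp1 and other named genes for the other libraries. Besides F121-9, the libraries 680kinv, 100kdel and 245kdel had 3.34%, 4.32% and 4.12% of 129 reads on X and 3.53%, 4.35% and 3.67% of cast reads. Cox7b2 stood at 43.3, 90.0 and 72.3 CPM and Sycp1 at 18.9, 41.5 and 42.7 CPM in these 3. In the remaining 11 libraries, which include ab.del, 1 of the X copies gave at most 0.589% of its reads, Cox7b2 was at most 6.31 CPM and Sycp1 at most 5.24 CPM. The copy that was low was the 129 X in most of the 11 but the cast X in c.del replicate 1, ac.del and b.del, which had 5.14%, 4.60% and 4.39% of 129 reads on X. Cox7b2 was at 1.30, 1.22 and 2.10 CPM in these 3. Other named genes divided the libraries in the same way. In F121-9, 680kinv, 100kdel and 245kdel, Runx1t1 was at most 49.6 CPM and Csrnp3 at most 169.2. In the 11 they were at least 50.8 and 182.2 CPM. Spink13 was at least 3.76 CPM in the former and at most 1.19 in the 11, and Nlrp4c at least 5.03 and at most 0.468. The part of the X chromosome in the germline result and in the changes of these genes was not tested.

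Promoters of the germline genes were read because most members were lower in ab.del. The table of RefSeq windows (build GRCm38.p6, 250 bases before to 50 after each start) held 29 of the 33 list members, and 12 of the 14 at an unadjusted p under 0.05. CACGTG, a motif that reads the same on both strands, and TCCCGC or its reverse complement GCGGGA were searched; these 2 motifs do not overlap each other in the windows shown. The first is the E-box that MYC-family proteins recognise and the second a core of E2F sites. The windows of Cox7b2, Sycp1, Smc1b and Hormad1, 4 of the low members, which act in meiosis or, for Cox7b2, in the testis, are shown with both motifs in capitals, 5′ to 3′ on the strand of the gene.
Cox7b2: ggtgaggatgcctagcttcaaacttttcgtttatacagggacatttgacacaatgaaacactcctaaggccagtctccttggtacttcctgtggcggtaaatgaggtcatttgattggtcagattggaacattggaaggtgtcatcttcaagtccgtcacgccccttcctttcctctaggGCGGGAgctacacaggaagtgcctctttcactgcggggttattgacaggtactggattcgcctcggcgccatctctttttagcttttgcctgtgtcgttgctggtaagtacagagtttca
Sycp1: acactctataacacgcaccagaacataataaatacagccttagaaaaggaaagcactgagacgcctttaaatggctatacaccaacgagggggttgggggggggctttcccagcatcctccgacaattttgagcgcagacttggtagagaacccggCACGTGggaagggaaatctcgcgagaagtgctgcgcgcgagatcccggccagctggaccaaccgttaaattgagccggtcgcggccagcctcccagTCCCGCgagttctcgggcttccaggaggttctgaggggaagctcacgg
Smc1b: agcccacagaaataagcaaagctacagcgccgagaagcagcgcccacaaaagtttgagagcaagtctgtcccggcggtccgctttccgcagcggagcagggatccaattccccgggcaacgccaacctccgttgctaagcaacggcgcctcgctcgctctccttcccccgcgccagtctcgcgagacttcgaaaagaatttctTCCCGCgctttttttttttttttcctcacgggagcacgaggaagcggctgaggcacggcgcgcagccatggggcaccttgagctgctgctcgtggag
Hormad1: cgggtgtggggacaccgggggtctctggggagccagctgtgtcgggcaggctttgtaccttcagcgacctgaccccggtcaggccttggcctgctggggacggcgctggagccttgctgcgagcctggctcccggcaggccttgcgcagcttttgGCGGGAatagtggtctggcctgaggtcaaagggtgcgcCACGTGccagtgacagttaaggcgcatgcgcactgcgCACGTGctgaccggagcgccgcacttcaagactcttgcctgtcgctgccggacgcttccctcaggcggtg

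These windows lie at chr5:71548156-71548455 (minus strand) for Cox7b2, chr3:102936051-102936350 (minus strand) for Sycp1, chr15:85131908-85132207 (minus strand) for Smc1b and chr3:95559427-95559726 (plus strand) for Hormad1. Cox7b2 and Smc1b held 1 match to the second motif and none to the first. Sycp1 held 1 of each, and Hormad1 held 2 CACGTG and 1 of the other. Over the 28 autosomal germline members with a window, 13 held CACGTG and 15 the second motif, shares of 46.4% and 53.6%. Over the 10435 tested genes with a window the shares were 10.3% and 36.0%, and over all 25748 autosomal windows 7.23% and 20.3%. Among the 12 low members 5 and 6 held them, and 8 (66.67%) held either, those shown included. Dazl, Syce1, Piwil4 and Asz1, also among the 12, held neither. Among the other 16 members 8 and 9 held them, and 13 (81.25%) held either. These shares were not tested. A match is a run of letters and not a measured binding site.

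The other lists had few members past an unadjusted p of 0.05, where 3.58% of all genes were lower and 2.92% higher. None was called by limma or edgeR, whereas DESeq2 called 2 fibroblast, 1 imprinted and 1 of the 2-cell-like genes, and 0.824% of all genes. Of 23 core and naive pluripotency genes tested, 1 was higher at that p, near the share over all genes. This was Lin28a, the RNA-binding regulator of let-7, with 11.6 and 14.1 against 5.96 and 3.04 CPM. The most transcribed members of that list overlapped between groups or nearly so: Esrrb gave 755.6, 806.7, 776.6 and 717.7 CPM, Tet1 754.3, 1021, 850.8 and 671.5, and Tfcp2l1 427.4, 645.1, 515.6 and 458.2. Their median change was 0.22. In D10 alone the median was -0.23 and in D12 alone 0.43, so the clones lay on either side of the parental line. Formative and primed genes had a median of 0.61 over 12. At that p 1 was higher, where 2.92% of all genes were: the neural transcription factor gene Zic2, at 1.56 and 3.57 against 1.07 and 0.304 CPM. Nodal gave 9.90, 24.1, 16.1 and 13.4 CPM and Lef1 55.4, 11.99, 10.5 and 20.4, without separation.

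Of the 2-cell-like list, which marks a rare totipotent-like state of stem cell cultures, 4 members passed the filter, some of them only through libraries in which they were high, so no direction is read from them. Zscan4d, 1 of several near-identical copies, had 0 reads in both clones and 0.419 and 1.11 CPM in F121-9 (-2.99 ± 0.82, limma adjusted p = 0.536). Summed over the list the level was 0.107 and 0.134 against 2.06 and 2.32 CPM, and 11 members had no read in any of the 4 libraries. The sums rest on few reads, such as 40 of the 129 and 16 of the cast copy for Zscan4d in F121-9. No direction is read from the sums either. Dppa2 and Dppa4 are known activators of this programme through Dux, which was among those 11, and a link to these values was not tested.

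Differentiation lists showed single genes. Col4a2, a basement membrane collagen of primitive endoderm, gave 1.20 and 5.32 against 7.17 and 7.87 CPM, while Lamc1 (205.1, 312.6, 285.01 and 204.8 CPM) and Sparc (10.2, 15.0, 9.72 and 11.9) overlapped. Tfap2c, shared by trophoblast, germ cells and naive stem cells, gave 9.87 and 26.9 against 6.91 and 8.40 CPM. In the fibroblast list Vim, the intermediate filament vimentin, gave 10.9 and 17.8 against 4.93 and 5.48 CPM and Col5a1 3.17 and 3.14 against 6.55 and 10.6. No neural or mesoderm member reached an unadjusted p of 0.05, where only 4 and 5 were tested and 6.5% of all genes reached it. In D12 Nes gave 9.95 CPM against 1.69, 1.65 and 2.22 in D10, R1 and R2, and Pax6 5.30 against 0.566, 1.55 and 0.503.

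Among genes of replication and chromosome folding, the processes under study, few could be counted at an unadjusted p under 0.05. Of 27 replication timing and origin factors 0 reached it, and 0 of 12 CTCF and cohesin genes. Over all genes 6.5% did, so lists of this size would hold few, and no result is read from these counts. Rif1, the main regulator of replication timing, gave 285.2, 372.9, 327.1 and 254.9 CPM in D10, D12, R1 and R2, and Orc4 169.9, 163.4, 216.2 and 181.8. Stag1, a cohesin subunit, gave 641.1, 430.0, 711.4 and 516.4 CPM, and Nipbl, the cohesin loader, 204.2, 197.6, 215.7 and 183.3. The medians were 0.24 and 0.00 against 0.10 over all genes. In 16 of the 27 replication factors both clones lay above both parental libraries, where 23.4% of all genes did.

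Signalling and stress genes were uneven between the clones. None of 16 FGF, ERK and immediate early genes and none of 18 p53 targets reached an unadjusted p of 0.05, with medians of 0.43 and 0.45. The first list stood at -0.06 in D10 alone and 1.03 in D12 alone, and the second at 0.18 and 0.91. Spry4, a feedback inhibitor of ERK signalling, gave 4.27 CPM in D10, 29.9 in D12, 4.98 in R1 and 1.44 in R2. Trp53 itself gave 50.7, 109.8, 51.6 and 39.9 CPM. D12 stood above the other 3 libraries for both.

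Imprinted genes, which are transcribed mainly from the copy of 1 parent, included 4 higher and 1 lower of 27 tested at an unadjusted p under 0.05, where 2.92% and 3.58% of all genes were. Peg3, a paternally expressed zinc finger gene, gave 19.6 and 26.2 against 9.27 and 11.8 CPM, and Mest 7.72 and 21.0 against 5.96 and 5.07. Mirg and Rian, noncoding RNAs of the Dlk1 to Meg3 cluster on chromosome 12, gave 43.3 and 68.6 against 26.4 and 30.6 CPM and 219.4 and 378.3 against 212.3 and 145.9. Mirg was higher on each copy, with 22.2 and 28.7 against 11.01 and 11.8 CPM on 129 and 64.5 and 108.5 against 41.8 and 49.3 on cast, whereas the cast copy of Rian overlapped (330.1 and 622.8 against 356.0 and 243.2 CPM). Grb10, an adaptor that restrains growth factor receptors, gave 1.44 and 4.78 against 9.31 and 11.1 CPM. None was called by limma.

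**Figure D5:**
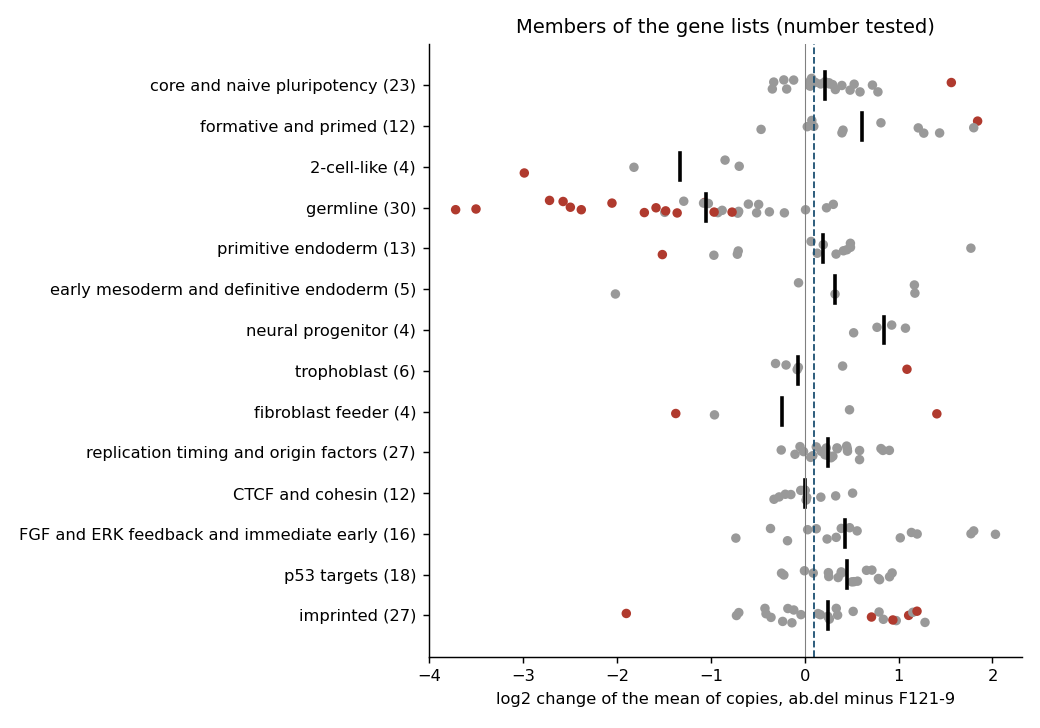
Log2 change of the mean of copies for every tested member of 14 gene lists, with the number tested in brackets. Red points have an unadjusted p under 0.05, black bars are list medians and the dashed line is the median of all genes, 0.10; the germline points lie mostly to the left of it.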

How the data were processed

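The submitters' processing notes name Bowtie2, bedtools and the build mm10, without versions. Column names show clipping, a mapping quality of 10 and a split by homozygous SNPs into reference and variant, taken as 129 and cast (per the file headers). Libraries were strand-specific, made from 300 ng of labelled RNA and read as 100 bp single ends, per the labels' protocols. The values deposited by the authors are CPM: each column sums to 1000000 over 42497 lines and no division by length was found, although the design assumed RPKM. Values were whole multiples of what 1 read is worth for 100% of entries (tolerance 0.01); edgeR and DESeq2 used these. The widest line per symbol on the 19 autosomes was kept.

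The 8 libraries of F121-9, ab.del, abc.del and c.del entered 1 model in limma 3.58.1 under R 4.3.3 (empirical Bayes with a mean trend, two-sided) on log2(CPM + 0.1), genes with a mean of at least 0.2 CPM, Benjamini-Hochberg adjustment over all genes, without further scaling. edgeR 4.0.16 (quasi-likelihood) and DESeq2 1.42.0 were alternatives. Exact permutation of 2 against 2 libraries cannot go below 0.333 and was not used. Intervals of read ratios and floors cover counting error only. The labels do not say that libraries of 1 group were separate cultures, so p-values cover only the spread seen among these libraries, which may be technical.

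Named genes were those within 1 Mb of Dppa2 or Dppa4, the 8 smallest p in each direction with no overlap of libraries, the 5 smallest p per copy, for 129 minus cast and against abc.del and c.del, and the 4 highest members and every passing member of 14 gene lists. Members of lists at an unadjusted p under 0.05, edgeR calls, Cd200 and Sohlh2 were added after their values were seen. The comparison, the members and the lists were chosen with earlier results of these data known. Alternatives were another pseudocount (0.01 or 1), no filter or 1 CPM, median centring, the 2 groups alone, all 16 libraries, the deposit block (which of 2 runs of sample numbers) as a covariate, all chromosomes, the line with the highest mean, and leaving out each library; removing the trend with gene width (lowess span 0.3) and centring with the 2 groups alone were added after seeing the data. Scripts were tested on simulated data. Tables, intervals and plots came from Python 3.11.15 (pandas 2.3.3, numpy 2.4.6; scipy 1.17.1 for intervals; matplotlib 3.10.9 for plots).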

Additional observations from a re-analysis of the deposited data

How the results depend on the processing

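On the mean of copies 0 genes were called; the count was 1 with a pseudocount of 1, 6 without a filter, 5 with median centring, 4 with the 2 groups alone, 138 with deposit block as a covariate, 7 over all chromosomes, 1 with edgeR, 112 with DESeq2, 111 with the 2 groups alone and centring, 1 with the width trend removed and 0 to 9 with a library left out (9 without either c.del library). On the 129 copy 7 were called, and 3 with a pseudocount of 0.01, 31 without a filter, 121 with deposit block, 30 over all chromosomes, 95 with DESeq2, 65 with the 2 groups alone and centring, 13 with the width trend removed and 0 to 12 with a library left out (0 without R1 or R2, 3 without either abc.del library, 3 without D10, 4 without D12, 12 without either c.del library). On the cast copy 0 became 18 without a filter, 4 with centring, 17 with the 2 groups alone, 73 with deposit block, 82 with the 2 groups alone and centring, 1 with edgeR, 48 with DESeq2 and 0 to 7 with a library left out (7 without either c.del library). For 129 minus cast 0 became 2 with a pseudocount of 1, 1 at a mean of 1 CPM, 2 with all 16 libraries and 7 with edgeR. For ab.del against abc.del on 129 values 0 became 1 without a filter, with centring, with deposit block and with DESeq2, and 0 to 1 with a library left out; against c.del 2 became 8 without a filter, 0 with the 2 groups alone, 24 over all chromosomes and 9 with DESeq2. The cause of these moves was not tested. ab.del was never called different from abc.del or c.del on the mean of copies in the alternatives run.

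Dppa2 and Dppa4 passed on the 129 copy in 20 of 22 alternatives and Morc1 in 19, failing without R1 or R2 and, for Morc1, without a filter; Cox7b2 passed in 15, Spink13 in 13, Runx1t1 in 12 and Csrnp3 in 11. Over 3075 values of named genes under the alternatives, 2780 kept direction and side of the threshold, 140 gained a call, 46 lost one, 109 changed sign with no call on either side, and 0 reversed. No autosome shifted by over 0.5 in ab.del, so leaving such autosomes out changed nothing; cast chromosome 3 of c.del replicate 1 (0.93) was kept in the fit. No paired analysis was possible because the ab.del libraries carry clone codes and share no replicate number with R1 and R2. A single library of a group, where 1 was left out, is assumed to vary like the other groups.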
